A study of Mus musculus with 18 samples.

Results

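The genes described here are Rbfox1, Rbfox2 and Rbfox3, which make up the Rbfox family of RNA-binding proteins, 3 of 20665 protein-coding genes on the autosomes (RefSeq, GRCm38.p6). Membership is by gene name; the family was taken up with earlier results of these data known. What was measured is where the transcription factors NFIA and NFIB lay at these genes, by CUT&Tag, in which a transposase brought to a protein by an antibody cuts the DNA nearby. The 18 libraries came from mouse cerebellum in the course of medulloblastoma formation. The stages were granule neuron progenitors (GNPs, postnatal day 7), hyperplasia (postnatal day 28) and tumors (adult mice), with 3 preparations of each stage and 1 NFIA and 1 NFIB library of 100000 cells from each preparation. All cells were taken from a Percoll gradient. Genotype and driver of the mouse model are not given in the sources used here. Stage and age changed together, and the labels do not tie preparations to animals. The p-values of the stage comparisons thus cover only how preparations varied, in part perhaps for technical reasons. Those of NFIA against NFIB cover only how libraries varied, with both libraries of a preparation taken as separate. A cell line that the design text also names was not analysed here.

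Rbfox proteins bind a short RNA element in introns near alternative exons and promote or repress the use of these exons according to where they sit. The members share a like RNA-binding domain and act in overlapping programs of neuronal splicing. Rbfox1 is expressed in neurons, heart and muscle and has a very long gene, Rbfox2 is expressed more widely, and Rbfox3 encodes NeuN, the nuclear antigen used to mark mature neurons and a strong label of cerebellar granule neurons. NFIA and NFIB are nuclear factor I proteins that bind DNA as dimers at paired TTGGC half-sites and act in the maturation of granule neurons. A position of NFIA or NFIB is not a measure of the expression of the gene near it.

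The deposited lists gave the summit of each peak, the base with the highest signal, and a score, which is a −log10 p-value from peak calling by the authors. Because the lists held between 49948 and 385466 summits, each library was reduced to its 30000 autosomal summits of highest score, called top summits here, and each was given to the nearest protein-coding gene span within 100 kb. Rank 1 is the highest score of a library. The lowest score among the top summits ranged from 3.46 to 9.84 between libraries, so that ranks and not scores were compared. In the second NFIA library of hyperplasia 20.4% of the top summits were tied with the last one kept. The differences of hyperplasia from GNPs at Rbfox1 and Rbfox3 are given with and without this library. Most other values that use it are given only with it. In the stage fits without it, the NFIB library of the same preparation took its place and was so counted again. The deposited name carried the other target in 6 libraries and another number in 12; stage was the same in both names, and titles were followed. GNP and hyperplasia preparations 1 and 2 share a title date and preparations 3 another, whereas each tumor preparation has a date of its own, so that tumor and date cannot be told apart. Markers did not check the labelled cells well. Of 9 granule lineage genes, 6 had top summits in every library (Atoh1 and Pax6 among them), but so had 4 of 6 astrocyte and Bergmann glia genes, 2 of 5 oligodendrocyte genes, 2 of 4 vascular genes and 1 of 5 Purkinje cell and interneuron genes. Gabra6, a gene of mature granule neurons, had 2 summits over all libraries, and 3 microglial genes had 0 to 3 per preparation in sum.

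Top summits were numerous at Rbfox1 and Rbfox3 and fewer at Rbfox2, in every preparation. At Rbfox1 (chromosome 16, 5884793 to 7412480, mm10, a span of 1527.69 kb on the forward strand) there were 38, 37 and 34 in the 3 GNP preparations, 48, 50 and 44 in hyperplasia and 44, 45 and 35 in tumors, each preparation being the sum of its NFIA and NFIB library. At Rbfox3 (chromosome 11, 118489760 to 118911597, 421.838 kb, reverse strand) there were 47, 45 and 43 in GNPs, 44, 37 and 37 in hyperplasia and 39, 41 and 50 in tumors. At Rbfox2 (chromosome 15, 77078990 to 77308434, 229.445 kb) there were 13, 9 and 15 in GNPs, 15, 11 and 14 in hyperplasia and 13, 12 and 12 in tumors. Rbfox3, with a mean of 42.6 top summits per preparation, stood 13th among all 20665 genes, Rbfox1 16th with 41.7 and Rbfox2 623rd with 12.7. No other protein-coding span overlaps any of them.

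Relative to length the members differed. Inside its span Rbfox3 held 4.46 top summits per 100 kb and library, against a median of 1.06 for the 796 genes of 0.5 to 2 times its length, and lay above 97.4% of them. Rbfox1 held 1.01 per 100 kb, against a median of 0.510 for 99 genes of like length, and lay above 76.8%. Rbfox2 held 1.89 per 100 kb, against 1.14 for 1673 genes, and lay above 69.8%. Per length, Rbfox3 thus had the densest summits of the family and Rbfox1, with nearly as many summits, the sparsest. Summits can be assigned from up to 100 kb outside a span. Of those at Rbfox1, 19.7% lay before the lower-coordinate end of the span and 5.87% after the higher-coordinate end. Of those at Rbfox3, none lay before the lower-coordinate end and 11.49% lay after the higher-coordinate end. The strands are opposite, so that Rbfox1 begins at its lower-coordinate end and Rbfox3 at its higher-coordinate end.

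**Figure D1:**
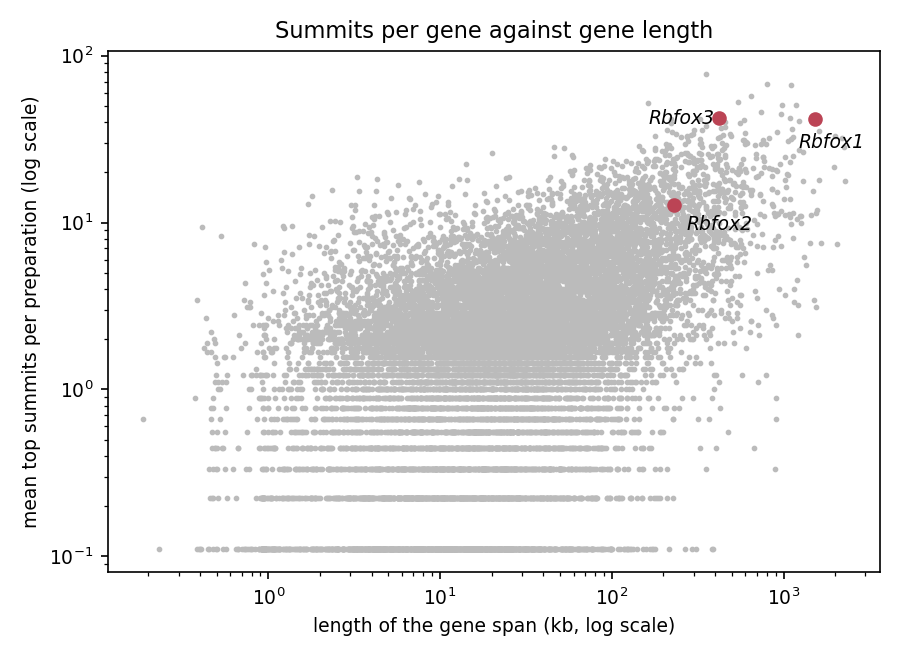
Mean number of top summits per preparation (vertical axis, log scale) against the length of the gene span in kb (horizontal axis, log scale) for each protein-coding autosomal gene with at least 1 top summit (grey), with the Rbfox genes in red. Rbfox1 and Rbfox3 lie close to each other in height, at 41.7 and 42.6 summits, with spans of 1527.69 and 421.838 kb.

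In hyperplasia Rbfox1 had the higher counts and Rbfox3 the lower ones, and neither passed the test. Rbfox1 had 47.3 ± 3.06 top summits in hyperplasia, against 36.3 ± 2.08 in GNPs (SD, n = 3 preparations each). All 3 hyperplasia preparations lay above all 3 GNP preparations, as was the case in this direction for 5.31% of the 8549 genes tested. The fitted log2 difference was 0.38 (SE 0.10, limma adjusted p = 0.195, and 0.115 to 1 over the alternative settings). By title date, preparations 1 and 2 had 48 and 50 in hyperplasia, against 38 and 37 in GNPs, and preparations 3 had 44 in hyperplasia, against 34 in GNPs. With the second NFIA library of hyperplasia replaced by the NFIB library of its preparation, the difference was 0.27 (limma adjusted p = 0.360).

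Rbfox3 had 39.3 ± 4.04 top summits in hyperplasia, against 45 ± 2 in GNPs (SD, n = 3 each), with overlapping counts and a log2 difference of -0.20 (SE 0.11, limma adjusted p = 0.495). Inside the span alone there were 37, 30 and 32 in hyperplasia, against 45, 41 and 40 in GNPs, without overlap (lower without overlap in 6.14% of 5118 genes with enough summits inside), and the log2 difference was -0.35 (limma adjusted p = 0.322). Outside the span the order was the opposite, with 7, 7 and 5 in hyperplasia, against 2, 4 and 3 in GNPs (higher without overlap in 5.22% of 3503 genes with enough summits outside). With the second NFIA library of hyperplasia replaced by the NFIB library of its preparation, the whole difference was -0.11 (limma adjusted p = 0.705). Rbfox2 had 13.3 ± 2.08 in hyperplasia, against 12.3 ± 3.06 in GNPs (SD, n = 3 each), a log2 difference of 0.13 (SE 0.19, limma adjusted p = 0.825). Of all genes tested, limma called 6 between these stages (0.0702%), and no Rbfox gene was among them.

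Some marker sums differed between these stages too. Top summits of the granule lineage genes summed to 37 to 39 per preparation in hyperplasia, against 56 to 59 in GNPs, but limma called 0 of the 8 that could be tested, with 6 fitted lower and 2 higher. Most of the gap came from Pax6, with 10, 6 and 8 in hyperplasia, against 15, 15 and 18 in GNPs, and Meis1, with 6, 5 and 8 in hyperplasia, against 11, 17 and 12 in GNPs, where 5.81% of all genes tested were lower without overlap. Atoh1 had 6, 6 and 5 in hyperplasia, against 6, 5 and 5 in GNPs. The top summits of 4 vascular genes summed to 14 to 20 in hyperplasia, against 22 to 26 in GNPs. Limma called 0 of the 3 that could be tested, with all 3 fitted lower and 2 at an unadjusted limma p under 0.05. Pecam1 had 5, 5 and 5 in hyperplasia, against 6, 9 and 7 in GNPs, without overlap. Flt1 overlapped, with 8, 11 and 6 in hyperplasia, against 12, 11 and 12 in GNPs. Kdr overlapped too, with 1, 3 and 3 in hyperplasia, against 6, 5 and 3 in GNPs. Sums overlapped for oligodendrocyte genes (12 to 19 in hyperplasia, 14 to 22 in GNPs) and for Purkinje cell and interneuron genes (7 to 10 and 8 to 11). Astrocyte and Bergmann glia genes summed to 27 to 31 in hyperplasia, against 25 to 30 in GNPs. In tumors the granule lineage genes summed to 44 to 48 and the Purkinje cell and interneuron genes to 7, also below GNPs. Limma called 0 of the 8 and 0 of the 2 that could be tested there. The other marker sums of tumors overlapped those of GNPs. The part of these cell types in the Rbfox counts was not tested. In pooled cells fewer cells of a type and less binding per cell cannot be told apart.

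Tumors lay between or among the other stages at all 3 genes. Rbfox1 had 41.3 ± 5.51 top summits in tumors, against 36.3 ± 2.08 in GNPs (SD, n = 3 each), a log2 difference of 0.18 (SE 0.10, limma adjusted p = 0.469). Against the 47.3 of hyperplasia the log2 difference of tumors was -0.20 (SE 0.10, limma adjusted p = 0.530), and the count of 35 in the third tumor preparation was the lowest of the 6. Rbfox3 had 43.3 ± 5.86 in tumors, with log2 differences of -0.06 from GNPs (SE 0.11, limma adjusted p = 0.832) and 0.13 from hyperplasia (SE 0.11, limma adjusted p = 0.709). Rbfox2 had 12.3 ± 0.577 in tumors, with log2 differences of 0.03 from GNPs (SE 0.19, limma adjusted p = 1) and -0.10 from hyperplasia (SE 0.19, limma adjusted p = 0.910). Limma called 25 of 8549 genes between tumors and GNPs (0.292%) and 4 between tumors and hyperplasia (0.0468%), none of them an Rbfox gene. With all listed summits, scaled to equal totals, the Rbfox3 difference of tumors from GNPs was -0.59 (limma adjusted p = 0.0927), the lowest adjusted p of an Rbfox gene under any setting, and over all settings it ran from -0.78 to 0.03. The Rbfox1 difference of tumors from hyperplasia ran from -0.62 to -0.09. The values of -0.78 and -0.62 came with a score of at least 5, unscaled. There the median of all genes was -0.46 for tumors against GNPs and -0.38 for tumors against hyperplasia.

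**Figure D2:**
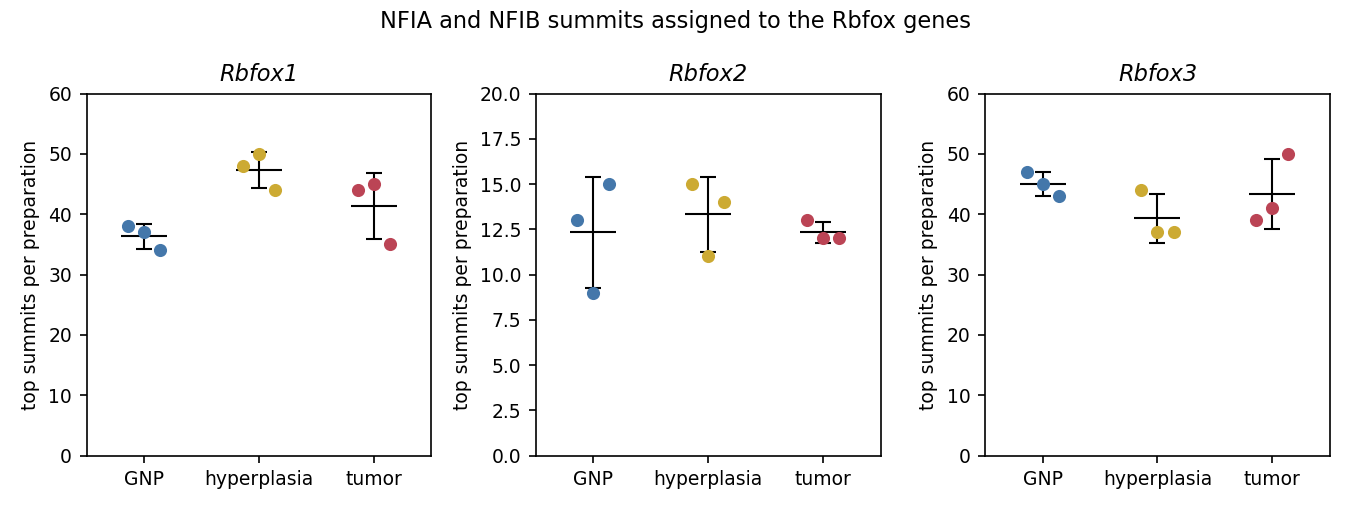
Top summits per preparation (vertical axis, count) at Rbfox1, Rbfox2 and Rbfox3 in GNPs, hyperplasia and tumors; points are preparations, and bars give the mean and SD of 3. Rbfox1 has 44 to 50 in hyperplasia, above the 34 to 38 of GNPs, whereas the stages overlap at Rbfox2 and Rbfox3; the middle axis ends at a lower count.

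NFIA and NFIB gave like numbers at each gene. Rbfox1 had 21 ± 4.92 top summits per NFIA library and 20.7 ± 3.67 per NFIB library (SD, n = 9 each; log2 difference 0.01, SE 0.12, limma adjusted p = 1). Rbfox2 had 6.56 ± 0.882 with NFIA and 6.11 ± 1.45 with NFIB (0.12, SE 0.14, limma adjusted p = 0.912). Rbfox3 had 20.6 ± 3.36 with NFIA and 22 ± 2 with NFIB (-0.11, SE 0.08, limma adjusted p = 0.881). Limma called 0 of 8549 genes between the targets (0%), with 477 at an unadjusted p under 0.05. In the 12 libraries whose names give the same target, the log2 difference at Rbfox1 was 0.20 (limma adjusted p = 0.596), and with the targets of the deposited names in all libraries it was 0.26 (limma adjusted p = 0.339).

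The top summits fell into 70 regions at the 3 genes, a region being top summits widened by 100 bp on each side, merged, and hit by at least 3 libraries. Rbfox1 had 33 regions, Rbfox2 8 and Rbfox3 29, which held 81.6%, 81.6% and 89.3% of their top summits. Of the 70, 60 lay inside the spans, 13 were hit by all 18 libraries (18.6%, with 14.6% among all 42012 regions) and 19 by only 3 or 4. The annotation used here gives spans without exons, so that exon and intron could not be resolved.

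**Figure D3:**
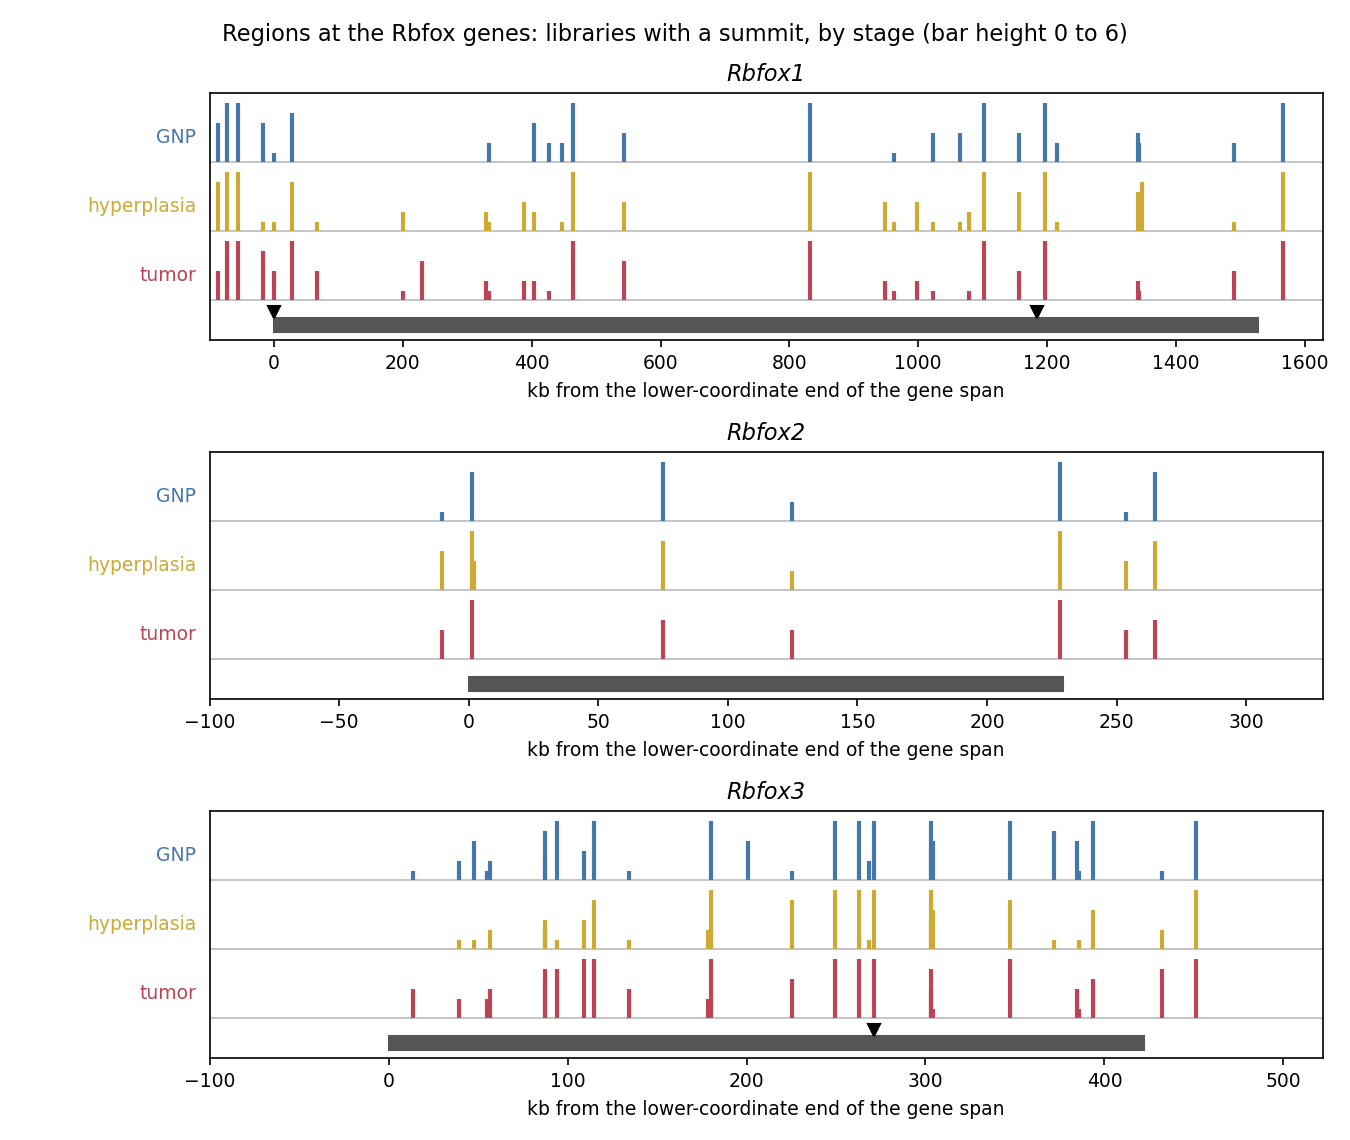
Regions along Rbfox1, Rbfox2 and Rbfox3, in kb from the lower-coordinate end of the span (grey bar), with bar height giving the number of libraries (0 to 6) with a top summit in GNPs, hyperplasia and tumors; triangles mark the listed starts of Rbfox1 and Rbfox3. Bars of full height in all 3 stages are the 13 regions of every library, 7 at Rbfox1, 1 at Rbfox2 and 5 at Rbfox3.

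At Rbfox3 the top summits were most numerous in the stretch of the span that holds the listed start, 271.281 kb from the lower-coordinate end. Of 4 equal stretches, the one with this start, number 3, had 37.6% of the top summits. Numbers 1, 2 and 4 had 17.5%, 17.5% and 15.9%. Of the 5 Rbfox3 regions of every library, 3 lay in number 3. One of these, chr11:118759977-118761289, covered the listed start. This start is internal to the span, which on the reverse strand begins at the higher-coordinate end. The best summit of the region lay 150.87 kb from that end. Each of the 18 libraries had a top summit within 1 kb of the start, and the highest-ranked of these in each library lay downstream of it, by 89 to 885 bases with a median of 436.5. Of all 29 top summits within 1 kb, 28 lay downstream and 1 upstream, by 148 bases, in the third NFIB library of hyperplasia. The ranks of the highest-ranked ones were 6042 to 13216 in GNPs (median 10262), 4823 to 16797 in hyperplasia (median 9567.5) and 6813 to 28718 in tumors (median 17076), and overlapped between stages. The other regions of every library were chr11:118669737-118670217, chr11:118739093-118740578, chr11:118752102-118752720 and chr11:118939647-118941025, the last of them outside the span. The highest-ranked summit at Rbfox3 lay in chr11:118739093-118740578 in the first GNP NFIA library, with rank 640 and a score of 20.8. A region at chr11:118604280-118604641 held the best Rbfox3 summit of 2 GNP and 5 tumor libraries. Its ranks were 1588 to 9376 in GNPs (median 4480.5), 3000 to 15384 in the 5 hyperplasia libraries with a top summit there (median 8413) and 1590 to 14026 in tumors (median 1794), and overlapped between stages.

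The sequences before the listed starts are shown because a region covered the listed start of Rbfox3 and none reached the second start of Rbfox1. They are the 250 bases before each start, 5′ to 3′ along the gene, from RefSeq (GRCm38.p6), with every TTGGC or GCCAA, the NFI half-site on either strand, in capitals. The table used holds no entry for Rbfox2.
Rbfox3, chr11:118761042-118761291, reverse strand: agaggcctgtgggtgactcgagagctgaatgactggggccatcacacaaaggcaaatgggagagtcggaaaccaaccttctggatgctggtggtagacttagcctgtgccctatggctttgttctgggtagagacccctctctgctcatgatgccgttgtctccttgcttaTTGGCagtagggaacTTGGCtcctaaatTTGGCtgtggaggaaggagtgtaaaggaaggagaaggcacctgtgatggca
Rbfox1, first start, chr16:5884543-5884792, forward strand: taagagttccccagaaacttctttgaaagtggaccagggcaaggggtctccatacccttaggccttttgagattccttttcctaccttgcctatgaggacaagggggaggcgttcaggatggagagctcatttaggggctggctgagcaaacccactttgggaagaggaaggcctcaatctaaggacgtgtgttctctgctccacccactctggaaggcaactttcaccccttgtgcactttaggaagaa
Rbfox1, second start, chr16:7069585-7069834, forward strand: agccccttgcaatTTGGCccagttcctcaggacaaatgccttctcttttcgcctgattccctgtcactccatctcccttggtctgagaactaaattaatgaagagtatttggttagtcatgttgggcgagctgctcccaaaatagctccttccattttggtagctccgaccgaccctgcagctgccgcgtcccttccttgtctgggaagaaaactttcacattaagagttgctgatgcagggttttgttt
The Rbfox3 window held 3 half-sites, 79, 64 and 51 bases before the start and all in the direction of the gene. Among 32851 windows of the same length before RefSeq starts, 2.68% held 3 or more and 41.5% held at least 1. No window of the 3 held the full palindrome, TTGGC and GCCAA with 5 bases between them, which 0.0365% of all windows held. The first Rbfox1 window held 0 half-sites, with a region 170 bases away that 5 libraries hit. The second Rbfox1 window held 1, and no library had a top summit within 1 kb of that start, 1185.04 kb into the span. A match is a description of the letters, and a window without one says nothing of the factor.

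Rbfox1 carried its regions of every library before, inside and after its span. They were chr16:5811051-5811811, chr16:5828755-5829482 and chr16:7450824-7451590 outside the span, and chr16:6348559-6349813, chr16:6716208-6716594, chr16:6986081-6986418 and chr16:7081015-7081647 inside it. The highest-ranked of all was a summit in chr16:5828755-5829482, 55.6 kb before the first start, at rank 489 in the first tumor NFIA library. The region at chr16:6716208-6716594 had ranks of 704 to 3063 in GNPs (median 1345), 621 to 3238 in hyperplasia (median 1794.5) and 1652 to 9299 in tumors (median 4020.5). The region at chr16:7081015-7081647, 11.3 kb from the second start, had medians in the reverse order, with 7625 to 18456 in GNPs (median 10855), 1667 to 12565 in hyperplasia (median 6123) and 2136 to 9670 in tumors (median 3327.5). Ranks overlapped between the stages in both. Of 4 equal stretches of the span, number 1 held 9 ± 3.46 top summits per preparation in tumors, against 3.67 ± 1.15 in GNPs (SD, n = 3 each). Counts there overlapped, at 5 to 11 and 3 to 5, and the mean of hyperplasia was 7. Number 4 held 12 ± 2.65 in hyperplasia, against 6.67 ± 1.53 in GNPs (SD, n = 3 each). Counts in number 4 did not overlap, at 9 to 14 and 5 to 8, and the mean of tumors was 7.67. Number 2 held 8 in GNPs, 7.67 in hyperplasia and 6.67 in tumors, and number 3 held 7.67, 9.67 and 7.33. Stretches were not tested, and the share of genes with like differences was not computed. The stretch before the span held 8.33 in GNPs, 8.33 in hyperplasia and 8 in tumors.

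Rbfox2 showed a separation by stage at a region of 1 end of its span, chr15:77079871-77080378, singled out after its values had been seen. Its best summit lay 1.1 kb inside the lower-coordinate end. In hyperplasia its ranks were 1847, 2220, 3822, 8298, 7821 and 7228, and in tumors 3880, 8356, 6148, 8354, 4541 and 1253 (NFIA then NFIB of preparations 1 to 3). In GNPs they were 24719, 20649, 29889, 20808 and 18978, and the NFIB library of preparation 2 had its summit only at rank 40760, outside the top 30000. Every hyperplasia and every tumor library thus ranked it above every GNP library. Among 12794 regions hit by at least 15 libraries, a description added after this region had been seen, ranks were better without overlap in 1.51% and worse in 2.64% for hyperplasia against GNPs, and better in 2.49% and worse in 1.77% for tumors against GNPs. Of the other 18 such regions at the Rbfox genes, 0 were without overlap in these comparisons. The opposite end of the span had the region of every library, chr15:77306586-77307263, 1.48 kb from the end, with ranks of 8008 to 19217 in GNPs, 2695 to 9384 in hyperplasia and 7276 to 26396 in tumors. The Rbfox2 region chr15:77153685-77154016, held the best summit of 5 of the 6 GNP libraries and was hit by 6 GNP, 5 hyperplasia and 4 tumor libraries.

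**Figure D4:**
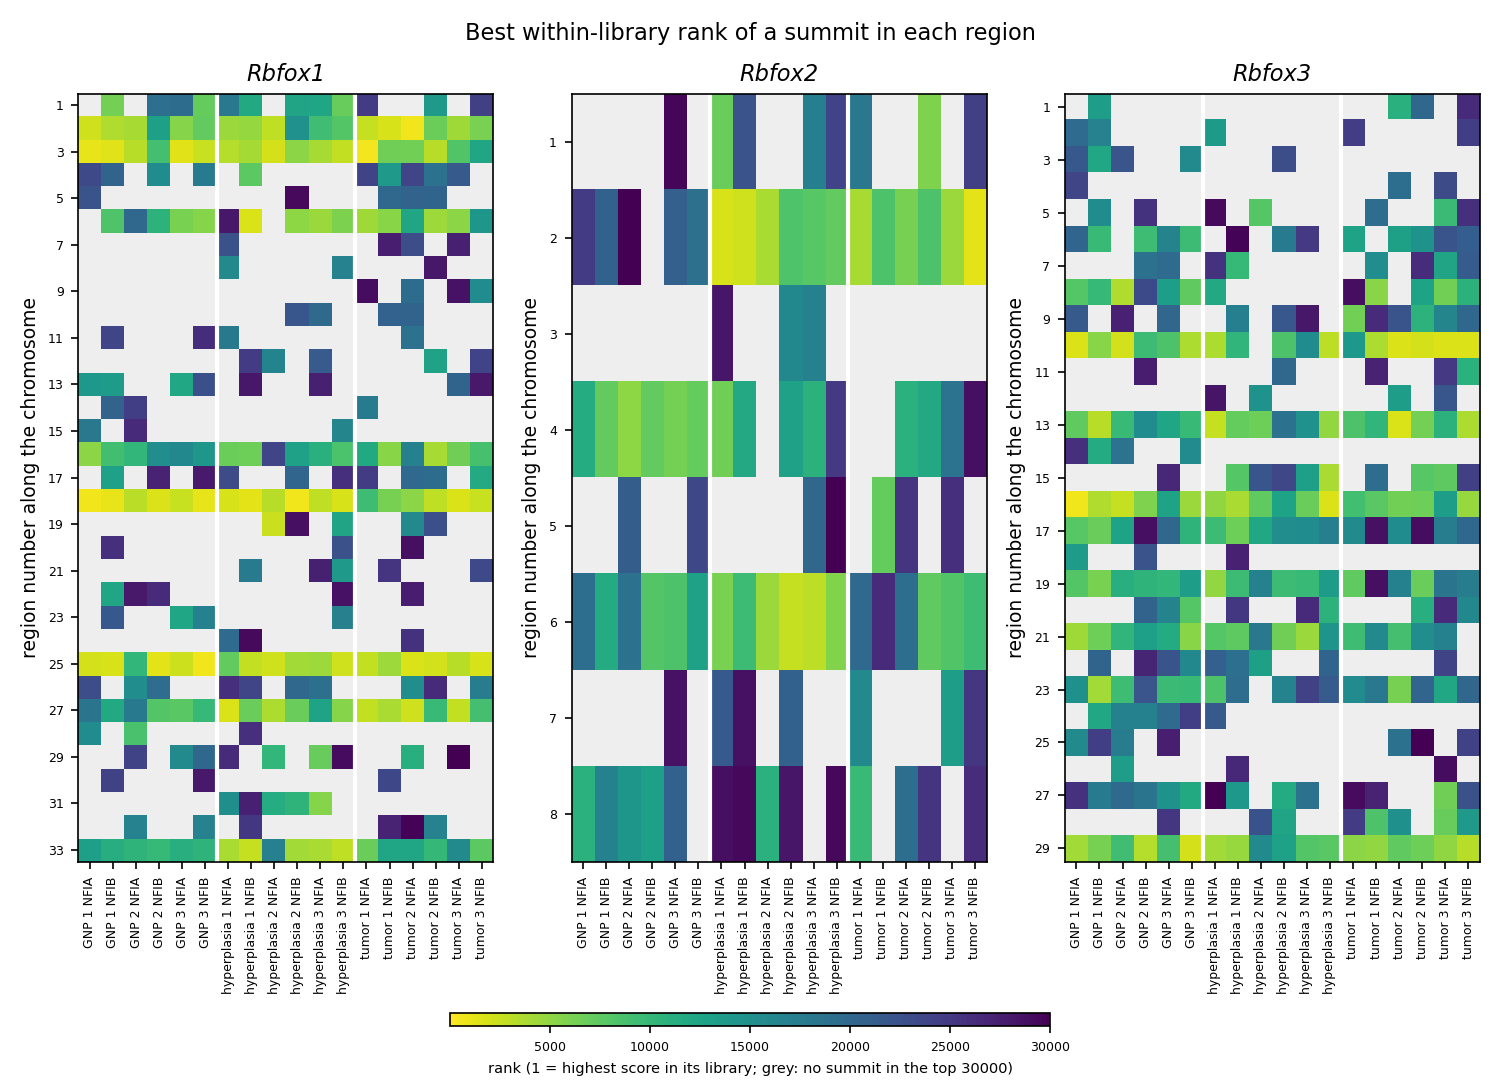
Best rank of a top summit in each region (rows, numbered along the chromosome) and library (columns, by stage, with white lines between stages) at Rbfox1, Rbfox2 and Rbfox3; yellow is a high rank, dark a low one and grey no top summit. Row 2 of Rbfox2 is dark or grey in the 6 GNP libraries, with ranks of 18978 and beyond, and light in the 12 others, with ranks of 1253 to 8356.

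A few regions were seen mainly at some stages. A region counted as gained with a top summit in at least 5 of 6 libraries of one stage and at most 1 of 6 of the other, and as lost in the opposite case. For hyperplasia against GNPs, 2 of the 70 regions were gained (2.15% of all 42012 regions) and 2 lost (2.78% of all). For tumors against GNPs 1 was gained (2.29% of all) and 1 lost (2.52% of all), and for tumors against hyperplasia 2 were gained (1.21% of all) and 1 lost (1.07% of all). These shares are near those of all regions. Leaving out GNP preparation 2 or 3 gave 7 lost regions for hyperplasia against GNPs, with at least 3 of 4 libraries as the criterion in that stage. The share of all regions under this looser criterion was not computed, so that the 7 cannot be set against the shares above.

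Of these, 4 lay at Rbfox3. The region chr11:118583749-118584466 was hit by 6 GNP, 1 hyperplasia and 5 tumor libraries, with few libraries in hyperplasia alone. The region chr11:118861303-118861737 was hit by 5 GNP, 1 hyperplasia and 0 tumor libraries. In the opposite direction, chr11:118715040-118715473 was hit by 1 GNP, 5 hyperplasia and 4 tumor libraries, and chr11:118921761-118922105, outside the span, by 1 GNP, 2 hyperplasia and 5 tumor libraries. At Rbfox1 chr16:7232678-7232925 was hit by 0 GNP, 5 hyperplasia and 0 tumor libraries, and chr16:5866908-5867409, before the span, by 4 GNP, 1 hyperplasia and 5 tumor libraries. A region missing from the top summits was often still listed at a lower rank. With all listed summits, chr11:118583749-118584466 was hit by 6 GNP, 5 hyperplasia and 6 tumor libraries, chr11:118861303-118861737 by 6, 5 and 5, and chr16:7232678-7232925 by 3, 5 and 3. With all 6 libraries against none as the criterion, 0 of the 70 regions were gained or lost in any comparison.

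When every listed summit was used, Rbfox3 stood apart from the other members in the long lists. In the 3 libraries with the longest lists (at least 279360 autosomal summits, all of them NFIA, 2 from tumors and 1 from hyperplasia), Rbfox3 had 1.58 to 2.12 of every 10000 listed summits, against 5.52 to 9.96 in the other 15 libraries. Rbfox1 had 8.76 to 10.03 in the 3 libraries and 5.96 to 9.51 in the others, and Rbfox2 1.63 to 1.84 and 1.63 to 3.20. Of 2202 genes with at least 1 of every 10000 on average, 40.6% were lower in the 3 libraries without overlap, and the median ratio of the means was 0.699. The ratio was 0.259 for Rbfox3, with 2.95% of these genes below it, 0.760 for Rbfox2 and 1.17 for Rbfox1. Within the top summits of the same 3 libraries Rbfox3 had 15, 18 and 19, where the others had 18 to 27. The 15 lay below that range and the 18 and 19 at its lower end, with a median of 22 over all 18 libraries.

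**Figure D5:**
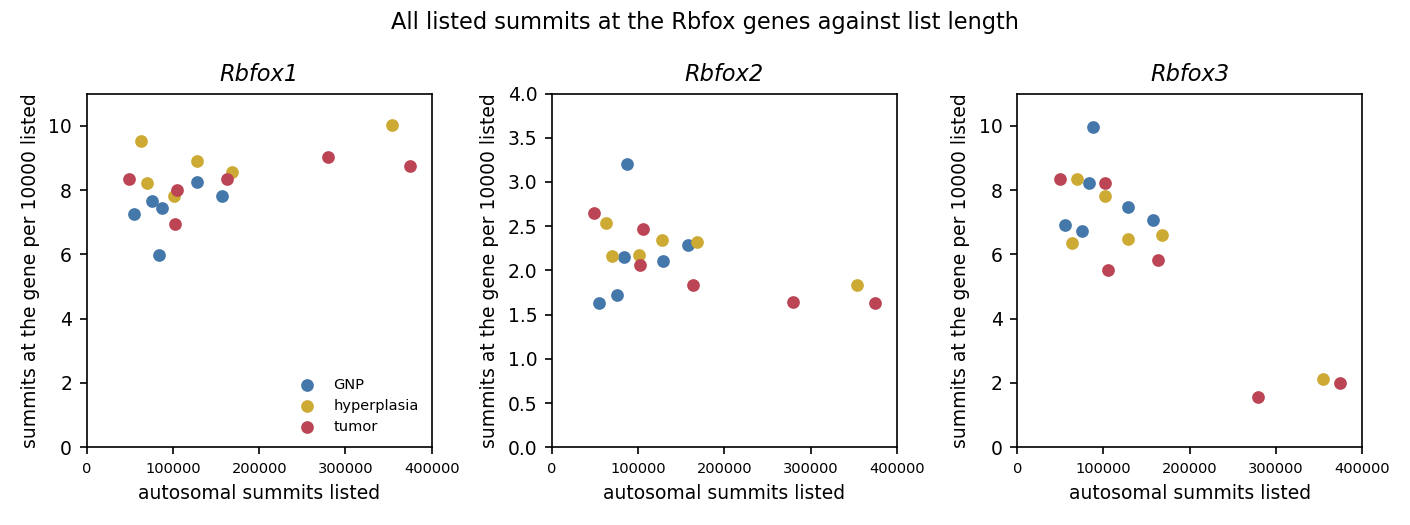
Summits at each Rbfox gene per 10000 summits listed (vertical axis) against the number of autosomal summits listed in the library (horizontal axis), for 18 libraries coloured by stage. The 3 longest lists hold Rbfox3 at 1.58 to 2.12 and Rbfox1 at 8.76 to 10.03; the middle axis ends at a lower value.

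The members did not follow each other across preparations. Pearson's r of log2(summits + 0.5) over the 9 preparations was -0.70 between Rbfox1 and Rbfox3, 0.07 between Rbfox1 and Rbfox2 and -0.09 between Rbfox2 and Rbfox3; all genes share the fixed total of 30000 per library. Of 1543 genes with a mean of at least 8 top summits, those most like Rbfox1 were Pde7b (r = 0.89), Slc16a1 (0.87) and Ltbp2 (0.87). Those most like Rbfox2 were Ebf1 (0.86), Camk1d (0.86) and Adamts6 (0.82), and those most like Rbfox3 were Psd2 (0.93), Pou3f1 (0.93) and Arhgap31 (0.92). These are descriptions over 9 points.

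Other regulators of neuronal splicing gave no call either. Of a list of 24, 23 were in the autosomal table, 19 could be tested, and limma called 0 in any comparison of stages. At an unadjusted p under 0.05 there were 4 for hyperplasia against GNPs, 5 for tumors against GNPs and 4 for tumors against hyperplasia. Median log2 differences were -0.12, 0.04 and -0.01 in these comparisons, beside 0 over all 8549 genes tested in each. Khdrbs2, which encodes the STAR-family splicing regulator SLM1, had 0, 0 and 1 top summits in tumors, against 5, 4 and 3 in GNPs and 3, 5 and 3 in hyperplasia. Counts were lower without overlap in 5.84% of genes for tumors against GNPs and in 3.73% for tumors against hyperplasia. The log2 difference of Khdrbs2 in tumors was -2.62 from GNPs (SE 0.45, limma adjusted p = 0.0651) and -2.50 from hyperplasia (SE 0.45, limma adjusted p = 0.135). It passed against GNPs without tumor preparation 3 (-3.15, limma adjusted p = 0.0221), with a range of 0.0221 to 0.672 over the settings. With all listed summits, scaled to equal totals, the difference from GNPs was 0.55, where the median of all genes shifted to -0.15.

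Elavl3, which encodes the neuronal RNA-binding protein HuC, had 2, 2 and 4 top summits in hyperplasia, against 6, 5 and 5 in GNPs (log2 difference -0.94, limma adjusted p = 0.213), and 4, 6 and 7 in tumors. Celf3, a CUG-binding splicing factor, had 3, 5 and 5 in tumors, against 2, 1 and 1 in hyperplasia (1.41, limma adjusted p = 0.299). Mbnl2, a muscleblind splicing factor, had 5, 6 and 4 in tumors, against 15, 8 and 11 in GNPs (-1.08, limma adjusted p = 0.153). Khdrbs1, which encodes Sam68, had 2, 4 and 2 in hyperplasia, against 4, 5 and 4 in GNPs (-0.66, limma adjusted p = 0.414). None of these 4 passed the test in any comparison of stages.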

How the data were processed

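The submitters' processing notes name Bowtie2, MACS2 and mm10 for these NFIA and NFIB libraries, without versions or settings. Summits of 1 base were deposited for each library on its own, scored by a −log10 p-value. Neither reads nor coverage were used here, so that depth is unknown and no counting interval is given.

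Stage, target and number came from the titles. Autosomal summits were ranked by score with ties broken at random (seed 1), and the top 30000 of each library were assigned to the nearest protein-coding RefSeq span (GRCm38.p6) within 100 kb. Coordinates are 1-based. Libraries of a preparation were summed, and log2(summits + 0.5) was fitted on stage with limma 3.58.1 (R 4.3.3, trend, empirical Bayes) for the 8549 genes that averaged 2 or more summits per preparation. Benjamini-Hochberg adjusted p-values under 0.05 were called. The pseudocount shrinks differences of genes with few summits. NFIA and NFIB were compared over libraries, keeping stage in the model. The fit was tested on simulated data.

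The members, the lists of 24 splicing regulators and of cell type markers and the tests were chosen with earlier results of these data known. Named splicing regulators are those called and the 3 with the largest absolute log2 difference in each stage comparison. Promoter sequences came from RefSeq (GRCm38.p6); symbols matched for Rbfox1 and Rbfox3. Python 3.11.15, numpy 2.4.6, pandas 2.3.3 and matplotlib 3.10.9 were used.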

Additional observations from a re-analysis of the deposited data

Results flagged for a closer look

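Among 45 groups of 6 libraries examined for the Rbfox genes, 5 held a library far from the other 5, where chance gives about 1 in 20. The best Rbfox1 summit of the second GNP NFIA library had rank 3063, against 640 to 1366 in the other GNP libraries. The best Rbfox2 summit of the first GNP NFIA library had rank 10898, against 5093 to 7249 in the others. The best Rbfox3 summit of the third GNP NFIA library had rank 8410, against 640 to 3399 in the others. The median rank of the Rbfox2 top summits was 8008 in the second GNP NFIB library, which had 3 of them, against 16838 to 21968 in the others. In the second NFIA library of hyperplasia Rbfox3 had 2.12 of every 10000 listed summits, against 6.34 to 8.35 in the other hyperplasia libraries.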

How the results depend on the processing

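No Rbfox gene passed the limma test in any setting, and hyperplasia kept the higher value at Rbfox1 (log2 difference 0.22 to 0.53) and the lower one at Rbfox3 (-0.42 to -0.11) in all of them. Signs turned elsewhere, each time in a difference that did not pass. With all summits scaled, which shifted the median of all genes to -0.15 for tumors against GNPs and -0.11 for NFIA against NFIB, values were -0.085 (Rbfox2, tumors against GNPs), -0.31 (Rbfox2, NFIA against NFIB), -0.26 (Rbfox3, tumors against hyperplasia), -0.076 (Elavl3) and 0.047 (Khdrbs2) for tumors against hyperplasia, and 0.55 (Khdrbs2) and 0.10 (Mbnl2) for tumors against GNPs. A score of at least 5, unscaled, shifted the median of all genes to -0.46 for tumors against GNPs. That median was -0.38 for tumors against hyperplasia and -0.09 for hyperplasia against GNPs. In this setting values were -0.36 (Rbfox1), -0.85 (Rbfox2) and -0.013 (Celf3) for tumors against GNPs. They were -0.25 (Rbfox2) for hyperplasia against GNPs, and -0.45 (Rbfox3) and -0.035 (Elavl3) for tumors against hyperplasia. NFIA against NFIB gave -0.23 at Rbfox1 and -0.16 at Rbfox2 with 15000 top summits, -0.00096 at Rbfox1 with other ties and -0.040 without the NFIA library of hyperplasia preparation 2. NFIA libraries alone gave 0.020 at Rbfox2 for tumors against hyperplasia, and list length as a covariate 0.033 at Rbfox3 for tumors against GNPs. Leaving out each preparation gave -0.061 to 0.092 for Rbfox1 (NFIA against NFIB), -0.076 to 0.28 for Rbfox2 (hyperplasia against GNPs), -0.17 to 0.18 for Rbfox2 and -0.17 to 0.0098 for Rbfox3 (tumors against GNPs). Without a turn of sign, Rbfox3 in tumors against GNPs (-0.06) reached -0.59 with all summits scaled and -0.78 with a score of at least 5, and Rbfox1 in tumors against hyperplasia (-0.20) reached -0.62 with a score of at least 5 and -0.086 without tumor preparation 3. The cause of these moves was not tested.

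Region counts are small and moved. With 15000 top summits there were 31 regions in place of 70, with 1 gained and 2 lost for hyperplasia against GNPs, 1 gained and 0 lost for tumors against GNPs, and 0 and 0 for tumors against hyperplasia; a half-width of 250 bp gave 1 gained for hyperplasia against GNPs, and all 6 libraries against none gave 0 throughout. Leaving out each preparation gave 2 to 4 gained and 2 to 7 lost for hyperplasia against GNPs, 1 to 4 and 1 to 5 for tumors against GNPs, and 1 to 5 and 1 to 2 for tumors against hyperplasia, where the criterion in the stage left with 4 libraries was at least 3. Losses from GNPs moved most without GNP preparation 2 or 3 (7 and 7 in hyperplasia, 5 and 4 in tumors). Gains moved without hyperplasia preparation 2 (4 against GNPs) and without tumor preparation 1 or 2 (4 and 4 against GNPs, and 5 against hyperplasia without preparation 1). Shares of all regions in these settings were not computed. Genes called by limma ranged from 0 to 85 for hyperplasia against GNPs (main 6; 85 with no filter on low values), 0 to 312 for tumors against GNPs (main 25; 312 with all summits scaled), 0 to 43 for tumors against hyperplasia (main 4) and 0 to 4 for NFIA against NFIB (main 0).

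Whether the numbers of the titles pair the preparations was not settled. Deviations of same-numbered preparations correlated at -0.004 to 0.08 and those of other-numbered ones at -0.07 to 0.03, all of them weak. Deviations of the NFIA and NFIB library of a preparation correlated at -0.07 to 0.07. With the replicate block limma called 1, 1 and 0 genes in the stage comparisons and no Rbfox gene (Rbfox1, hyperplasia against GNPs, 0.38, limma adjusted p = 0.182). Preparations paired by the deposited names, an alternative chosen after seeing the data, gave 0.38 for the same value (limma adjusted p = 0.255). Scores depend on depth, which is unknown, and a summit absent from a list is only one not called.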

Other observations

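Some regions at the Rbfox genes had top summits in libraries of a single stage, and all were singled out after their values had been seen. At Rbfox1 chr16:6114006-6114538 had top summits in 4 tumor libraries and in 0 of the other stages, but listed summits at any rank in 4 GNP, 3 hyperplasia and 6 tumor libraries. At Rbfox2 chr15:77080786-77081043, close to the region that ranked low in GNPs, had top summits in 3 hyperplasia libraries alone and listed ones in 4 GNP, 4 hyperplasia and 2 tumor libraries. At Rbfox3 chr11:118690227-118690607 had top summits in 4 GNP libraries alone and listed ones in 6 GNP, 1 hyperplasia and 2 tumor libraries. Together with the Rbfox1 region of 5 hyperplasia libraries this makes 1 of 70 regions for GNPs, 2 for hyperplasia and 1 for tumors, where 2.12%, 1.04% and 1.31% of all 42012 regions were hit in these single stages.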
